A study of Mus musculus with 36 samples.

Results

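Vcam1, Ly6a, Spp1, Ccl2, Tnfrsf1a, Tnfrsf1b, Il33, Olr1, Ccr7 and Cd14 are genes of vascular inflammation and of the synthetic state of smooth muscle. They are 10 of the 9822 genes named in the 3 tables of histone-mark peaks, and were chosen by symbol after their folds and p-values in these tables were known, so their differences are given as a description and are not tested again. The cells were primary aortic smooth muscle cells from C57BL/6N mice, labelled CSE WT, and from mice with a whole-body knockout of CSE, labelled CSE KO. CSE is cystathionine gamma-lyase, an enzyme that makes hydrogen sulfide. Cells of both genotypes had received 1 µM angiotensin II, a pressor peptide, for 24 hours, and no group without it was included, so each difference is one between genotypes in treated cells. The labels do not give the animals' age or say whether animals were pooled. Chromatin immunoprecipitation was done for H3K9ac and H3K4me3, marks of active promoters, and for H3K9me3, a mark of heterochromatin, with 3 samples for each mark, genotype and kind of library (immunoprecipitated or input).

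The tables hold 1 row per peak that the authors listed at a p of 0.05, each assigned to a gene, with no value per sample. For H3K9ac and H3K9me3 they give the mean of each genotype on a log2 scale of normalised reads, here called the level. Neither the spread between samples nor the depth of a library is known, so no error can be set beside a level. A place without a listed peak may have had no peak called there, or a peak that did not reach that p. At H3K9ac and H3K9me3 its p may also have been under 0.0001, since the smallest listed p was 0.000101 and 0.00011. The absence of a listed peak therefore does not show that a mark was unchanged. Listed H3K9ac peaks were mostly lower in the knockout, and listed H3K9me3 peaks mostly higher.

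Smooth muscle cells of the artery wall can leave the contractile state for a synthetic one, in which contractile proteins decline and matrix, adhesion and inflammatory proteins are made. Tumour necrosis factor acts through both of its receptors, TNFR1 (Tnfrsf1a) and TNFR2 (Tnfrsf1b), to switch on NF-kappaB, which in vascular cells induces the adhesion molecule VCAM-1 and the monocyte-attracting chemokine CCL2. Acetylation of histone H3 at lysine 9 is found around the starts of transcribed genes, whereas trimethylation of the same residue accompanies silencing. A gain of one mark does not by itself show a change in RNA, which was not analysed here.

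All 10 genes had a listed peak, 19 in all. H3K9ac accounted for 16 peaks at 8 genes and H3K9me3 for 3 peaks at the other 2, Il33 and Olr1. No gene had a listed peak of both marks, and 0 had one of H3K4me3. The knockout was higher at 15 of the 16 H3K9ac peaks by the authors' deposited table, against 22.8% of all 8115 listed H3K9ac peaks. By gene, 7 of the 8 were higher, against 24.2% of 5911 listed genes given 1 call each. The exception was Tnfrsf1a. An FDR under 0.05 was given to 10 of the 16 peaks by the authors' deposited table, against 16.6% of all listed. Because these genes were picked from the same comparison, nothing is read from those contrasts. The median higher peak of these genes was 2.35-fold higher by the authors' deposited table, and the median of all higher H3K9ac peaks 2.50-fold.

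**Figure D1:**
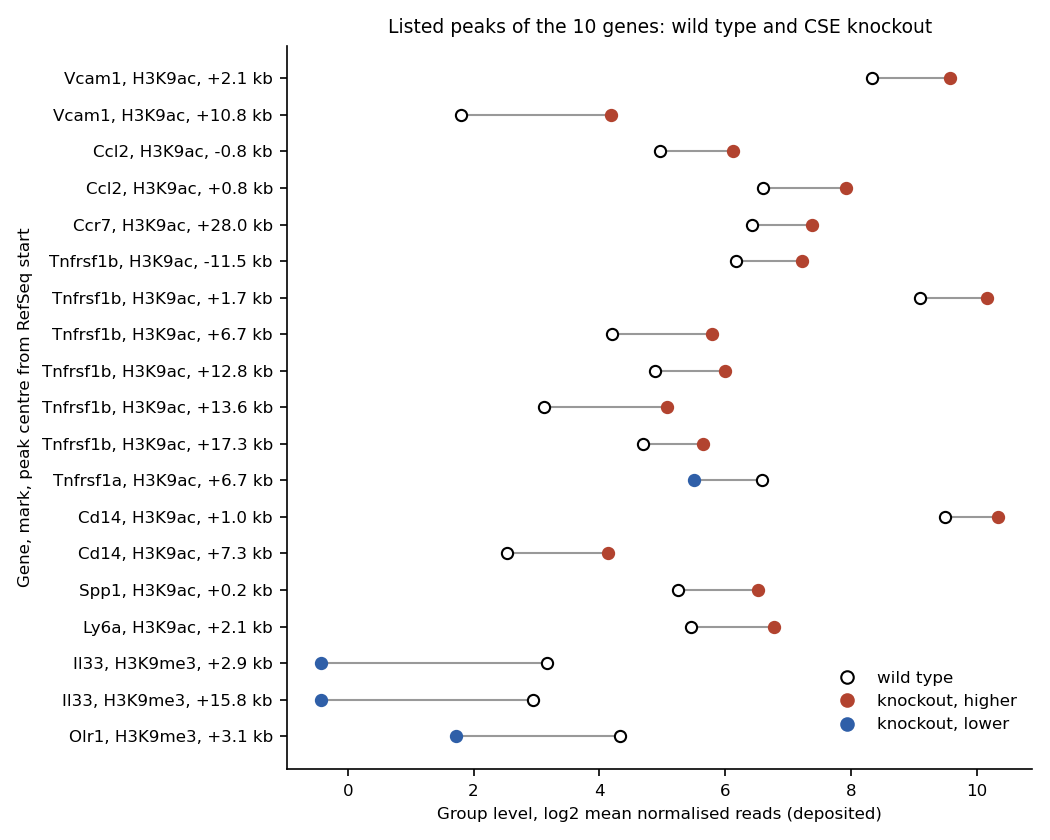
Level of each listed peak of the 10 genes in wild type (open circles) and knockout (filled circles), in log2 mean normalised reads, with 1 row per peak named by gene, mark and distance of its centre from the RefSeq start. In 15 of 16 H3K9ac rows the knockout lies to the right; at Tnfrsf1a, Il33 and Olr1 it lies to the left.

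Promoter sequences of 5 of the 10 genes (Spp1, Tnfrsf1b, Tnfrsf1a, Olr1 and Il33) were in the RefSeq table of build GRCm38.p6. Those of 3 genes are shown, running 5′ to 3′ from 250 bases before the start to 50 after it: Spp1 and Tnfrsf1b, because an H3K9ac peak lay on the start, and Tnfrsf1a, because the peak assigned to it did not. The windows are chr5:104434861-104435160 on the plus strand (Spp1), chr4:145246821-145247120 on the minus strand (Tnfrsf1b) and chr6:125349473-125349772 on the plus strand (Tnfrsf1a). Capitals mark the motifs found.
Spp1: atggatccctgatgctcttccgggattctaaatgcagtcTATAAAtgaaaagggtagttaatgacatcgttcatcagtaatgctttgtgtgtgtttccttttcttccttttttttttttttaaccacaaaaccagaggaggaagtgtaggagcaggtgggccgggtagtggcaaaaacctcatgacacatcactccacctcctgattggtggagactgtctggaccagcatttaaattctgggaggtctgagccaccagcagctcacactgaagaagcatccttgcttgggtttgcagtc
Tnfrsf1b: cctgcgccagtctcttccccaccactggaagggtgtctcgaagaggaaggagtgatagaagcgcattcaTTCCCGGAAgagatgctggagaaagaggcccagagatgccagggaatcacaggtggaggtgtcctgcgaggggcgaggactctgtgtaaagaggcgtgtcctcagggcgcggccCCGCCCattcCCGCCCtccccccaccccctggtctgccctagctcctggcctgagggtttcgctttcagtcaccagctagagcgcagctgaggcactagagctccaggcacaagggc
Tnfrsf1a: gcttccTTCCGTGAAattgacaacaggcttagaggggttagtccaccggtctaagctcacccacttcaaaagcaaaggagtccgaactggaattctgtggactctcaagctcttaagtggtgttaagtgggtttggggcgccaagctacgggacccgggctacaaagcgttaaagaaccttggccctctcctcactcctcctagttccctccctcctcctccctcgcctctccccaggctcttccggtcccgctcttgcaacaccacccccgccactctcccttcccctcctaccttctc

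The 6 motifs listed here were searched on both strands, and those found in the 3 windows did not overlap each other. With the start site counted as 0, Tnfrsf1b held a GAS element, the site of STAT factors (TTCNNNGAA), at -181 to -173, and 2 Sp1 boxes (GGGCGG) on the other strand at -67 to -62 and -57 to -52. Tnfrsf1a held a GAS element at -244 to -236. Spp1 held the letters TATAAA at -211 to -206. Of 32851 promoter windows of this length, 8.30% held a GAS element, 35.7% an Sp1 box and 13.6% TATAAA. The NF-kappaB motif, in 8.46% of all windows, was found in 0 of the 5 genes' windows. Neither was the CArG box, the site of serum response factor in contractile genes, which 1.63% of windows held. AP-1 (TGANTCA), in 7.81% of windows, was found once, in Olr1 at -60 to -54, and TATAAA in both windows of Il33. The Olr1 window has its start at position 129507165, whereas distances given for Olr1 below run from the RefSeq gene bound at 129507350. These matches describe letters in a short window and show no binding.

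Vcam1 encodes the adhesion molecule by which activated vessel wall cells hold leukocytes. Its main H3K9ac peak covered the start (chr3:116125366-116129889) and was wider than 99.0% and stronger than 97.7% of listed H3K9ac peaks. Its level by the authors' deposited table was 9.57 in the knockout and 8.34 in the wild type, or 760 against 324 normalised reads. That is 2.35-fold higher (FDR 0.0121 by the authors' deposited table). A second, weak peak inside the gene, 10.7 kb from the RefSeq start and near the start of a shorter transcript, had levels of 4.18 and 1.80 by the authors' deposited table. It was 5.21-fold higher, the largest H3K9ac fold of the 10 genes, but rests on 3.48 normalised reads in the wild type and had an FDR of 0.122 by the authors' deposited table. Both peaks ran against their chromosome, on which 12.8% of 415 listed H3K9ac peaks were higher.

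Ccl2 encodes the chemokine that draws monocytes, also called MCP-1. One peak covered its start and most of the gene (chr11:82035478-82037287). In the authors' deposited table it had a level of 7.92 in the knockout and 6.60 in the wild type, 2.50-fold higher with an FDR of 0.0114. A second peak ended 0.314 kb upstream of the start and had levels of 6.13 and 4.97 by the authors' deposited table (2.23-fold higher, FDR 0.148). Both stood among other higher peaks. One centred 3.39 kb downstream of the start, annotated to Gm17268, had a log2 fold change of 1.30 (FDR 0.0852), and one centred at -19.8 kb, at Gm31522, a log2 fold change of 1.77 (FDR 0.0560) by the authors' deposited table. Within 100 kb all 4 listed H3K9ac peaks were higher. The share of higher peaks on chromosome 11 was 47.5%.

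Ccr7 encodes the receptor that guides dendritic cells and T cells to lymph nodes. The only peak assigned to it lay outside the gene, 16.3 kb past its end and 27.2 kb from its start (chr11:99126290-99127901), and none was listed at its promoter. The level there was 7.38 in the knockout and 6.43 in the wild type by the authors' deposited table, 1.93-fold higher with an FDR of 0.0380. The nearest listed peaks on that side, 6 in number, were assigned to Tns4, which encodes a focal adhesion protein of the tensin family. All 6 were higher, with log2 fold changes of 1.01 to 2.07 by the authors' deposited table. The Ccr7 peak thus stood in a stretch of higher peaks between both genes, and the only ground that the table gives for assigning it to Ccr7 is the distance to a start site. On the other side a peak of Smarce1, a chromatin remodelling subunit, was lower (log2 fold change -1.36, FDR 0.277 by the authors' deposited table).

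The genes of both TNF receptors differed in direction. Tnfrsf1b, encoding TNFR2, had 6 listed H3K9ac peaks over 30.0 kb, more than any other of the 10 genes, and each was higher in the knockout by the authors' deposited table. Of the 50 genes with 6 or more listed H3K9ac peaks, 4 had only higher ones, Tnfrsf1b among them. Nothing is read from that count, because Tnfrsf1b was chosen with its values known. The broad peak on its start (chr4:145243324-145247086) had a level of 10.17 in the knockout and 9.09 in the wild type, 1152 against 545 normalised reads, by the authors' deposited table. It was 2.13-fold higher with an FDR of 0.0494, just under 0.05, per the authors' deposited table. The mean level of both genotypes at this peak exceeded that of 98.9% of listed H3K9ac peaks, and of 94.1% of those over an annotated start.

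In intron 1 of Tnfrsf1b, 4 smaller peaks lay 6.33 to 16.9 kb downstream of the start. The first of them had levels of 5.79 and 4.20 by the authors' deposited table (3.01-fold higher, FDR 0.0141). The one at 13.4 kb had levels of 5.08 and 3.12, the largest fold at this gene at 3.89 (FDR 0.0293 by the authors' deposited table). The remaining 2 were 2.13-fold and 1.93-fold higher, with FDRs of 0.0647 and 0.222 by the authors' deposited table. Upstream, at 10.5 kb, a peak had levels of 7.22 and 6.17 (2.08-fold higher, FDR 0.0379 by the authors' deposited table). Peaks of the neighbouring genes Tnfrsf8, another receptor of the family, and Vps13d were also higher, so that all 8 listed H3K9ac peaks within 100 kb went one way. Chromosome 4 as a whole had 62.8% of its 231 listed peaks higher, and whether the chromosome's share contributes to the Tnfrsf1b peaks was not tested.

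Tnfrsf1a, encoding TNFR1, had 1 listed peak (chr6:125355798-125356998), with a level of 5.50 in the knockout and 6.59 in the wild type by the authors' deposited table. It was 2.13-fold lower with an FDR of 0.0395 by the authors' deposited table. The authors' annotation calls it a promoter peak, from a short transcript that starts inside the gene, but it began 6.08 kb downstream of the RefSeq start, whose window is printed above, and covered 0 bases of that window. No listed peak covered that start. Its surroundings were lower too, with all 5 listed H3K9ac peaks within 100 kb lower. They include 2 peaks of Plekhg6 (log2 fold changes of -0.73 and -0.78 by the authors' deposited table) and 1 of Cd9, a tetraspanin (-2.36). On chromosome 6, 16.0% of 550 listed peaks were higher.

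**Figure D2:**
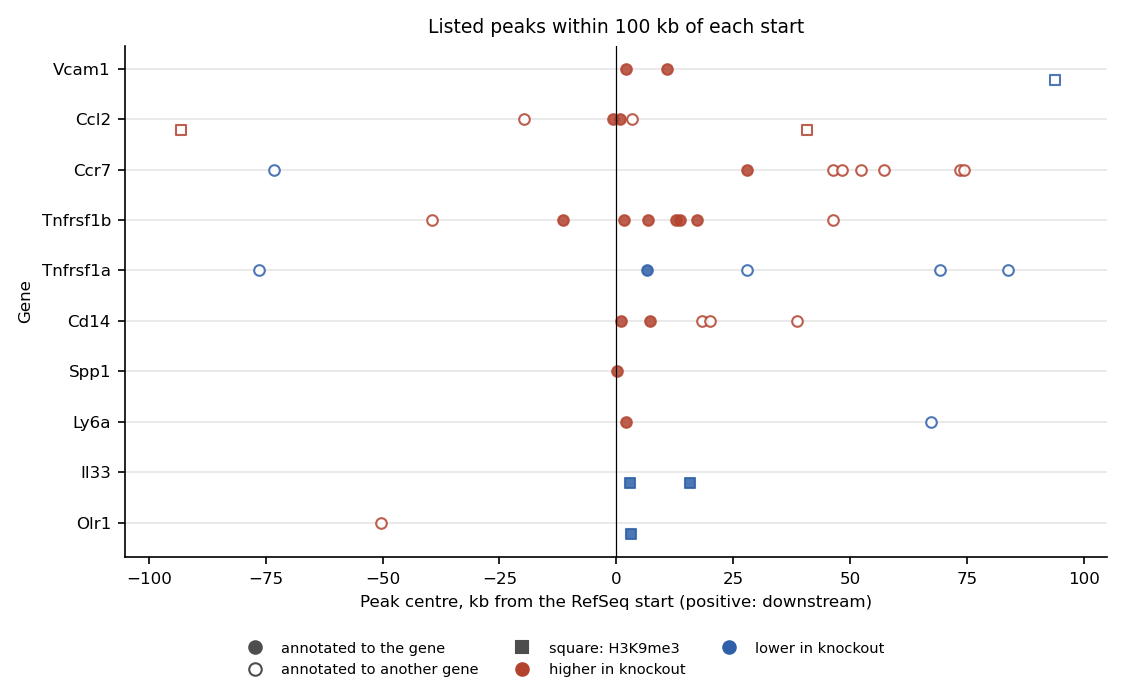
Listed peaks within 100 kb of the RefSeq start of each gene, by the distance of the peak centre in kb (H3K9ac circles, H3K9me3 squares; filled where assigned to the gene, open where assigned to another; red higher, blue lower in the knockout). All 8 H3K9ac peaks around Tnfrsf1b are higher and all 5 around Tnfrsf1a are lower.

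Cd14 encodes the co-receptor that hands lipopolysaccharide to TLR4, found above all on monocytes and macrophages. The peak on its start was the strongest of all 16, with a level of 10.34 in the knockout and 9.50 in the wild type by the authors' deposited table. Its fold was also the smallest of the higher peaks, 1.79, and its FDR of 0.231 by the authors' deposited table did not pass. A faint peak 5.42 kb past the end of the gene had levels of 4.13 and 2.53 (3.03-fold, FDR 0.297 by the authors' deposited table). Of the 8 genes with H3K9ac peaks, Cd14 was the 1 with no peak under an FDR of 0.05. Around it, 3 peaks assigned to E230025N22Rik were higher, with log2 fold changes of 2.01, 1.40 and 1.80 by the authors' deposited table. On chromosome 18, 63.2% of 239 listed peaks were higher.

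Spp1 encodes osteopontin, a secreted phosphoprotein widely used as a marker of synthetic smooth muscle. Its peak (chr5:104434836-104435846) held the whole printed promoter window. The level was 6.53 in the knockout and 5.25 in the wild type, 92.4 against 38.1 normalised reads, by the authors' deposited table. This is 2.43-fold higher with an FDR of 0.0278 by the authors' deposited table. It stood alone: no other peak of any of the 3 marks was listed within 100 kb. The share of higher peaks on chromosome 5 was 35.9%.

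Ly6a encodes the surface antigen Sca-1, which marks stem-like mesenchymal cells and smooth muscle cells that have lost the contractile state. Its peak lay within the gene, beginning 1.60 kb downstream of the RefSeq start (chr15:74995515-74996433), and did not cover that start. In the authors' deposited table the level was 6.77 in the knockout and 5.45 in the wild type, 2.50-fold higher with an FDR of 0.0240. Only 13.3% of 488 listed peaks on chromosome 15 were higher, and the nearest other listed peak, of Gm39556, was lower. Of the other 21 genes in the list of the Ly6 family, 3 had a listed H3K9ac peak. Lypd2 and Slurp1 lie 264 and 272 kb from Ly6a and were 2.55-fold and 2.01-fold higher (FDR 0.0782 and 0.127 by the authors' deposited table), and Ly6g6e was 1.87-fold lower (FDR 0.0716).

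**Figure D3:**
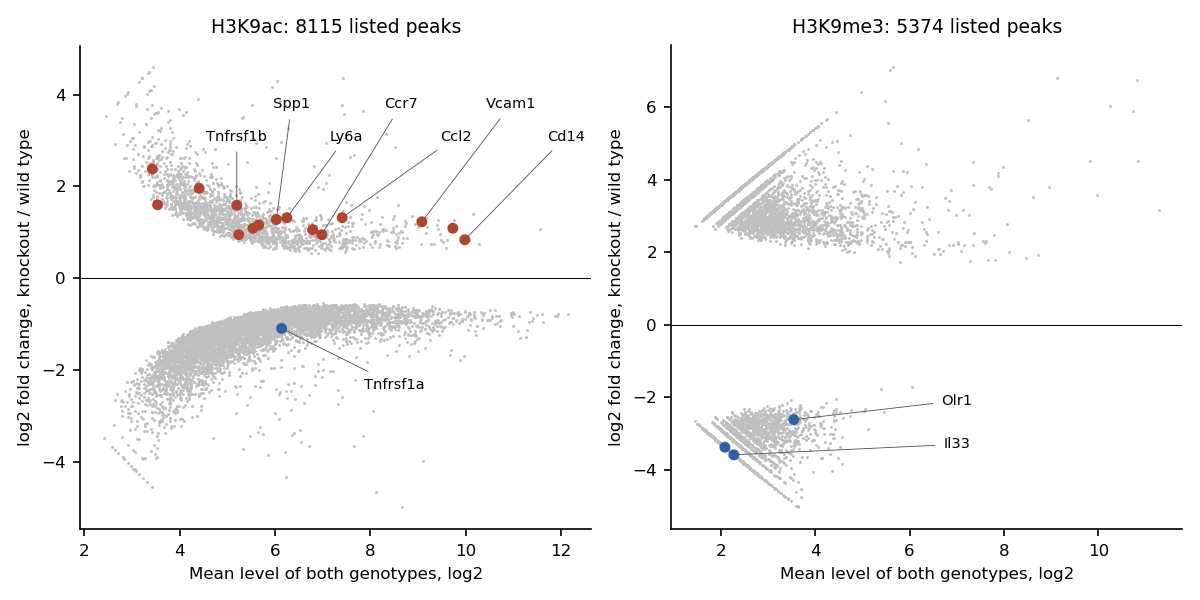
Log2 fold change of knockout over wild type against the mean level of both genotypes for all listed H3K9ac (left) and H3K9me3 (right) peaks, in grey, with peaks of the 10 genes in colour and named at the peak of smallest p. The H3K9ac peaks span most of the range of levels, whereas the Il33 peaks lie on the lower edge of the H3K9me3 cloud, where the knockout is at its lowest level in the table.

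Il33 encodes an alarmin of the interleukin 1 family, and Olr1 the scavenger receptor LOX-1, which takes up oxidised low-density lipoprotein. Their 3 H3K9me3 peaks were all lower in the knockout by the authors' deposited table, against 39.0% of 5374 listed H3K9me3 peaks, and both genes were lower against 39.6% of 3951 genes. These genes, too, were chosen from this comparison. None of the 3 passed a corrected test: each had an FDR of 1 by the authors' deposited table, where no listed H3K9me3 peak was below 0.2.

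At Il33, 1 peak began 2.76 kb downstream of the RefSeq start (chr19:29927876-29928093) and had a level of 3.16 in the wild type and -0.42 in the knockout by the authors' deposited table. The other lay in intron 1, 15.7 kb from that start and at -4731 bases from the start of the second Il33 window (29945790). Its levels were 2.95 and -0.42 by the authors' deposited table. The knockout value of both is the lowest knockout level in the table, shared by 547 peaks, so the log2 fold changes of -3.58 and -3.37 by the authors' deposited table depend on that level. In the wild type the peaks held 8.94 and 7.73 normalised reads per library on average by the authors' deposited table. Both were narrow, 219 and 213 bases wide by the table, against a median of 398.

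The Olr1 peak lay inside the gene, 2.97 kb downstream of the RefSeq start (chr6:129504015-129504385), with a level of 1.72 in the knockout and 4.33 in the wild type by the authors' deposited table. That is 3.29 against 20.1 normalised reads, 6.11-fold lower with a p of 0.0445 by the authors' deposited table, near the limit of listing. Of the listed H3K9me3 peaks on chromosome 6, which holds Olr1, 27.6% were higher, and on chromosome 19, which holds Il33, 46.5%. No H3K9ac peak was listed within 100 kb of Il33. The only one near Olr1 was centred at -50.3 kb, at Gm44251, and was higher with an FDR of 0.280 by the authors' deposited table.

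The 16 H3K9ac peaks lay on the starts and away from them, and all but that of Tnfrsf1a were higher. The start itself was covered in 5 genes (Vcam1, Ccl2, Tnfrsf1b, Cd14 and Spp1), with a median width of 2662 bases by the table, against 719 for all listed H3K9ac peaks. Only 17.2% of all listed H3K9ac peaks lay over an annotated start, so these widths are of unlike sets. All 5 start peaks were higher in the knockout, from 1.79-fold to 2.50-fold by the authors' deposited table. Another 4 peaks carried a promoter label without covering the RefSeq start, among them those of Ly6a and Tnfrsf1a. With promoters limited to 3 kb from the RefSeq start, 7 higher peaks were left and 0 lower, since the Tnfrsf1a peak fell outside. Within 100 kb of the 10 starts, 20 further H3K9ac peaks assigned to other genes were listed, 14 higher and 6 lower. Of all listed H3K9ac peaks 22.8% were higher. The 20 lay mostly around Ccr7 (6 higher, 1 lower), Tnfrsf1a (4 lower) and Cd14 (3 higher). Since the 10 genes were chosen with their own peaks known, nothing is read from the count around them. Within 200 kb 0 H3K4me3 peaks were listed.

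Lists of related genes were compiled with earlier results of these data known and are described without a test, with 1 call per gene. A call could come from a peak of any annotation, also one far from the gene. Over all 5911 genes with a listed H3K9ac peak 24.2% were higher and 75.8% lower, and the median log2 fold change was -1.01 by the authors' deposited table. Lower was thus the usual direction, and nothing particular to a list is read from its counts. Vcam1 was the only higher gene of the adhesion list: the other 5 with a listed peak were lower, among them Mcam (2.36-fold, FDR 0.0137), Jam3, a junctional molecule (2.06-fold, FDR 0.0777), and Cd44, the hyaluronan receptor (2.60-fold, FDR 0.124), by the authors' deposited table. Their median log2 fold change was -1.24 by the authors' deposited table, beside the 75.8% lower and -1.01 of all listed genes. The Cd44 peak was intergenic, at -42.5 kb from its start.

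Among the other 51 chemokines and chemokine receptors, 3 had higher and 3 lower H3K9ac, beside the 24.2% higher of all listed genes. Of these 6, 0 reached an FDR of 0.05 by the authors' deposited table. Cxcl15 was 6.32-fold higher (FDR 0.119) from a wild-type level of 1.50, and Cxcl1, a neutrophil attractant, 2.57-fold higher (FDR 0.134) by the authors' deposited table. The receptor genes Cxcr5 and Cxcr6 were 2.03-fold and 2.13-fold lower, with FDRs of 0.0747 and 0.160 by the authors' deposited table. For H3K9me3 the list had 3 higher genes and 1 lower, each assigned from an intergenic peak, beside 60.4% higher of all genes listed for that mark. The peak of Ccl11, an eosinophil attractant, was centred 40.8 kb from the Ccl2 start (log2 fold change 3.06, FDR 1 by the authors' deposited table).

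Of 43 other genes of TNF receptors and NF-kappaB signalling, 15 had a listed H3K9ac peak, 5 higher and 10 lower, beside the 24.2% higher of all listed genes, with a median log2 fold change of -0.96 by the authors' deposited table. Nfkbiz, encoding a nuclear IkappaB protein, was 4.03-fold lower (FDR 0.00911) and Relb, an NF-kappaB subunit, 2.31-fold lower (FDR 0.0514) by the authors' deposited table. Birc2, an apoptosis inhibitor bound to TNF receptor complexes, was 6.54-fold higher (FDR 0.00956) and Tnfrsf21, a death receptor, 3.48-fold higher (FDR 0.0150) by the authors' deposited table. The Tnfrsf21 peak was intergenic, at -40.4 kb from its start. Birc2 was also the only gene of this list with an H3K4me3 peak, for which no direction is given.

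All 6 other listed genes of the interleukin 1 and toll-like receptor list were lower for H3K9ac, beside 75.8% of all listed genes, Cd14 being the only higher one. Il1rl2, the interleukin 36 receptor, was 3.16-fold lower (FDR 0.0140) and Ticam1, the adaptor of TLR3 and TLR4, 1.91-fold lower (FDR 0.0304) by the authors' deposited table. Il18rap and Tlr3 were 2.66-fold and 3.89-fold lower, with FDRs of 0.0682 and 0.0766 by the authors' deposited table. The Tlr3 peak was intergenic, at -28.3 kb from its start. For H3K9me3, a peak assigned to Tlr4 was lower like those of Il33, again with the knockout at its lowest level (FDR 1 by the authors' deposited table). It was intergenic, 155 kb from the Tlr4 start, whereas the Il33 peaks lay inside the gene. Of the scavenger receptor list all 3 listed genes had lower H3K9ac, beside 75.8% of all listed genes. They include Lrp1 (5.50-fold, FDR 0.0507) and Marco (7.52-fold, FDR 0.0527) by the authors' deposited table. The Marco peak was intergenic, at -45.8 kb from its start.

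The synthetic-state list had 4 higher and 5 lower H3K9ac genes other than Vcam1, Ly6a and Spp1, where 24.2% of all listed genes were higher. Of these 9, 0 had an FDR under 0.05 by the authors' deposited table. Myh10, a non-muscle myosin, was 2.89-fold higher (FDR 0.0512) and Egr1, an immediate early factor, 3.12-fold higher (FDR 0.110) by the authors' deposited table. The Myh10 peak lay in an intron, 11.9 kb from its start, and the Egr1 peak was intergenic, 22.2 kb from its start. With promoter peaks only, the whole list had 3 higher genes, which were Vcam1, Ly6a and Spp1, and 4 lower. The share higher among promoter calls of all genes was not counted. Atf3 and Fn1, which encodes fibronectin, were 1.67-fold and 1.88-fold lower, with FDRs of 0.108 and 0.128 by the authors' deposited table. Of the contractile list 12 of 13 listed genes were lower, beside 75.8% of all listed genes, with a median log2 fold change of -1.23 by the authors' deposited table. They include Ldb3 (2.50-fold, FDR 0.00708) and Lmod1 (2.35-fold, FDR 0.0335), with Smtn 1.93-fold higher (FDR 0.0435), by the authors' deposited table.

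**Figure D4:**
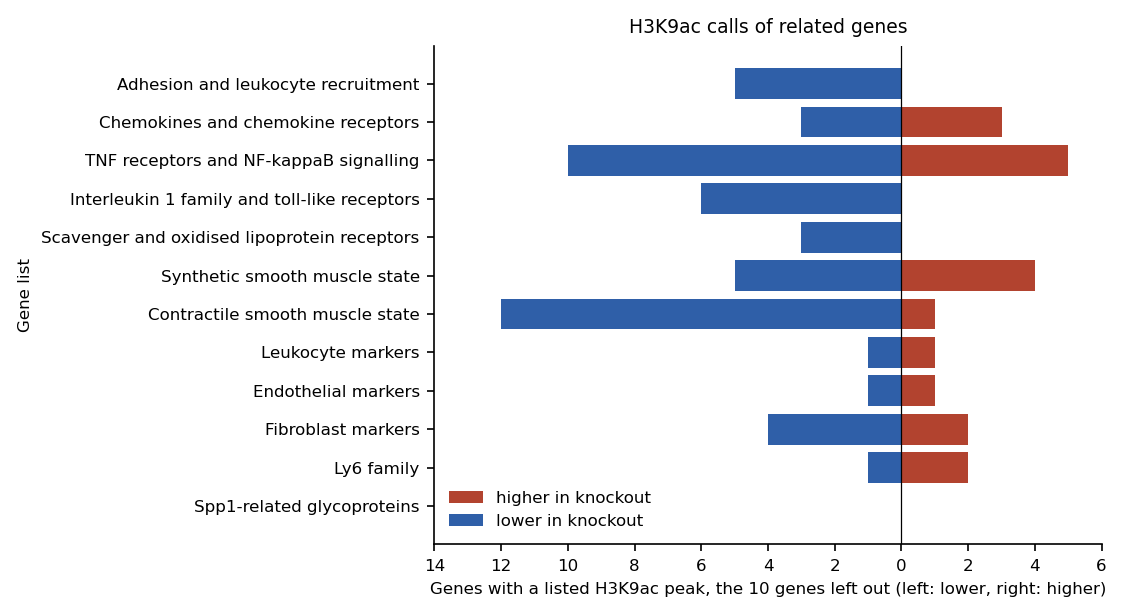
Number of genes with a listed H3K9ac peak in each list of related genes, the 10 genes left out, lower in the knockout to the left (blue) and higher to the right (red), 1 call per gene. The contractile list has 12 lower and 1 higher, and the adhesion, interleukin 1 and scavenger lists have lower genes only. Of all listed H3K9ac genes 75.8% were lower.

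Ccr7 and Cd14 are also leukocyte markers and Ly6a a fibroblast marker. Of the other 24 leukocyte markers 2 had a listed H3K9ac peak, Aif1 1.66-fold higher and Fcgr3 1.61-fold lower (FDR 0.322 and 0.271 by the authors' deposited table). Ptprc, Itgam and Adgre1, which define leukocytes and macrophages, had no listed H3K9ac peak. Adgre1 did have an H3K9me3 peak, with a level of 3.33 in the knockout and -0.45, the lowest wild-type level, in the wild type, and Lyz1 one with levels of 3.14 and -0.45 (FDR 1 for both by the authors' deposited table). Of 16 endothelial markers 1 was higher (Pecam1, 1.72-fold, FDR 0.245) and 1 lower (Vwf, 1.57-fold, FDR 0.225) by the authors' deposited table. For H3K9me3, Vwf (3.85 in the knockout, -0.45 in the wild type) and Sox17 (3.71 and 0.63) were higher, each with an FDR of 1 by the authors' deposited table. Fibroblast markers other than Ly6a gave 2 higher genes, Col1a2 (4.66-fold, FDR 0.0851) and Lum (2.03-fold, FDR 0.140), by the authors' deposited table. The Col1a2 and Lum peaks were intergenic, at 8.85 kb and -17.1 kb from their starts. Another 4 markers were lower, such as Col3a1 (2.41-fold, FDR 0.0251) and Fbln1 (2.97-fold, FDR 0.0160) by the authors' deposited table. With promoter peaks only, the whole fibroblast list had 1 higher gene, Ly6a, and 3 lower. For H3K9me3 Fbln1 was higher (3.52 in the knockout, 0.01 in the wild type) and Col3a1 lower (1.43 and 4.14), each with an FDR of 1 by the authors' deposited table. The Col3a1 H3K9me3 peak was intergenic, at -39.1 kb from its start. Of all 3951 genes with a listed H3K9me3 peak 60.4% were higher, and of all 5911 with a listed H3K9ac peak 24.2%. Since a marker is listed only where genotypes differed, the tables do not show which cell types were present, and the part of other cells in the Ccr7, Cd14 and Ly6a differences was not tested.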

How the data were processed

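Chromatin of 36 samples (12 groups of 3: each of 3 marks, immunoprecipitated or input, CSE KO or CSE WT) was sequenced. The submitters' processing notes name CASAVA 1.4 and mm9; the aligner, peak caller, normalisation and test were not given in the sources used here. Positions of genes overlapped those of GRCm38.p6 for 99.7% (H3K9ac), 99.6% (H3K9me3) and 100% (H3K4me3) of matched symbols. Peak positions are printed as deposited and taken to be of that build, which was not tested further. The authors deposited, per the file headers, for H3K9ac and H3K9me3 the log2 means of both genotypes, their difference as a log2 fold change, an FDR and a p-value, and positions only for H3K4me3. The fold change equalled the difference of both means within 0.01. Since the test was not given, the spread that their p-values set the genotype difference against is not known, and it may be technical.

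Rows were taken by gene symbol. A gene's call was its peak of smallest p. Distances were to the RefSeq gene start, with the strand of the deposited annotation, and neighbours were peaks within 100 kb. Motifs were searched in 300-base RefSeq windows. The step that gives each gene its call was tested on simulated data. Python 3.11.15, numpy 2.4.6 and pandas 2.3.3 were used. The genes and lists were chosen with earlier results of these data known. All 10 genes are named with every listed row, and from each list up to 4 other genes of smallest p, those within 100 kb of a start included. Of the genes this rule names, 2 are not reported here. No test across genes was run, since the tables hold selected peaks only and no value per sample. Alternatives were a stricter p, FDR, a signal limit, promoter peaks only, 1 call per gene, other windows, and, chosen after seeing the data, promoters within 3 kb of the RefSeq start.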

Additional observations from a re-analysis of the deposited data

How the results depend on the processing

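Of the 15 higher H3K9ac peaks of the 10 genes, 11 were left at p under 0.01 and 14 with both levels at least 2 (log2). FDR under 0.05 left 9, promoter annotation 8, and 1 call per gene 7, each with 1 lower. Promoters within 3 kb of the RefSeq start left 7 and 0 lower. The 3 lower H3K9me3 peaks were reduced to 0 at p under 0.01, at FDR under 0.05 and with both levels at least 2, and to 2 with promoter annotation, with 1 call per gene and within 3 kb of the RefSeq start. With promoter peaks only, higher H3K9ac genes went from 5 to 3 in the chemokine list, from 7 to 3 in the synthetic-state list and from 3 to 1 in the fibroblast list, and stayed within 1.5 times in the other 9 lists. H3K9ac peaks near the starts numbered 27 within 50 kb, 36 within 100 kb and 47 within 200 kb. These settings use fewer or more of the listed rows and refit nothing. No paired analysis was possible because the tables hold group means only; for the same reason no replicate could be left out. Depth is unknown, and the listing starts at a p of 0.000101 (H3K9ac) and 0.00011 (H3K9me3).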

Other observations

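The deposited H3K9ac and H3K9me3 tables label genes with pathways, and those labels were read after the values of the 10 genes had been seen. The label of the TNF signalling pathway was carried by 4 of the 10 genes (Vcam1, Ccl2, Tnfrsf1a and Tnfrsf1b). Of the 33 other genes with that label and a listed H3K9ac peak, 14 were higher and 19 lower, or 42.4% higher, with a median log2 fold change of -0.90 by the authors' deposited table. Cytokine-cytokine receptor interaction was the label of 4 (Ccl2, Tnfrsf1a, Tnfrsf1b and Ccr7), with 19 higher and 30 lower among 49 others (38.8% higher). Viral protein interaction with cytokine and cytokine receptor, held by the same 4, had 2 higher and 8 lower among 10 others (20.0% higher). Lipid and atherosclerosis, also with 4 (Vcam1, Ccl2, Tnfrsf1a and Cd14), had 18 higher and 31 lower among 49 others (36.7% higher). The NF-kappa B signalling label, held by Vcam1, Tnfrsf1a and Cd14, had 5 higher and 22 lower among 27 others (18.5% higher). Over all listed H3K9ac genes 24.2% were higher. Genes carry several of these labels, so the counts overlap, and no difference between them was tested.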
